A study of Mus musculus with 6 samples.

Results

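Chromatin accessibility was examined at 8 genes that act in, or mark, undifferentiated spermatogonia: Zbtb16, Sall4, Foxo1, Taf4b, Lin28a, Utf1, Cdh1 and Uchl1. They were taken by name for their known roles, with earlier results of these data known, and are 8 of the 21339 protein-coding genes whose 5′ end could be placed. For each gene, every ATAC-seq peak between 10 kb before the 5′ end and 10 kb past the 3′ end was taken, and this stretch is called the window of the gene. A peak within 3 kb of the 5′ end counted as a promoter peak. In ATAC-seq, the Tn5 transposase cuts accessible DNA and adds sequencing adapters to it, so that open chromatin is found as peaks of fragments. Spermatogonia-enriched cells came from testes of mice at postnatal day (Pnd) 5, with 3 libraries from wild-type (WT) mice and 3 from mice labelled S7KO, which per the study are Sirt7-/- and lack the deacetylase SIRT7, a knockout that is not limited to germ cells. Per the study, both genotypes were kept on the same inbred background. The comparison asks whether accessibility at these genes differed without SIRT7. Somatic cells were depleted by plating, and per the study most of the remaining cells carried PLZF, the product of Zbtb16. The measurement it shows is of WT cells, and its text gives no such value for S7KO. Some other testis cells can therefore be present in every library, and whether the genotypes were equally enriched is not known here. Each library is named here for its genotype and the number in its title, which is 1, 2 or 4 in both genotypes. The library names in the descriptions number them differently, in the same order. Per the study, the 3 libraries of a genotype are independent biological replicates, and the labels do not say which animals went into each.

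Undifferentiated spermatogonia are the germ cells that include the stem cells of the testis. They either renew themselves or, on exposure to retinoic acid, turn into differentiating spermatogonia that express Kit. PLZF is a zinc finger repressor that keeps spermatogonia undifferentiated, and it interacts with SALL4, another zinc finger factor. FOXO1 is a forkhead factor needed to maintain the stem cells, and TAF4B is a subunit of the TFIID initiation complex needed to keep spermatogenesis going. LIN28A binds RNA and blocks the maturation of let-7 microRNAs, UTF1 is a chromatin-associated factor, CDH1 is the adhesion molecule E-cadherin, and UCHL1 is a ubiquitin hydrolase used as a marker of spermatogonia.

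For 4 of the 8 genes (Foxo1, Lin28a, Utf1 and Uchl1), RefSeq gave the 250 bases before a transcript start. The sequences are on GRCm38.p6, the patch release of the mm10 build used for the peaks. No such sequence was available for Zbtb16, Sall4, Taf4b and Cdh1, whatever their accessibility. In each printed stretch, all 250 bases lay under a peak in each of the 6 libraries, so they are part of the accessible DNA that the promoter values below describe. Each is printed 5′ to 3′ on the strand of the gene, with capitals for the GC box (GGGCGG or CCGCCC) and the CCAAT box (CCAAT or ATTGG). The positions are chr3:52268087-52268336 for Foxo1, chr7:139943606-139943855 for Utf1 and chr5:66675871-66676120 for Uchl1, all on the plus strand. For Lin28a the position is chr4:134018817-134019066 on the minus strand. The Lin28a stretch lies inside the gene extent used here, chr4:134003330-134019196. It therefore precedes a transcript start downstream of the 5′ end on which the promoter values of Lin28a rest.
Foxo1: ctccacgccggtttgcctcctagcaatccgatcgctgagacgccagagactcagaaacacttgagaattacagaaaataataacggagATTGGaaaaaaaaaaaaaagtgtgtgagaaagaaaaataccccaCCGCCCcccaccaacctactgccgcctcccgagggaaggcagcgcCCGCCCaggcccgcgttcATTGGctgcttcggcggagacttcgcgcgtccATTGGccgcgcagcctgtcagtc
Lin28a: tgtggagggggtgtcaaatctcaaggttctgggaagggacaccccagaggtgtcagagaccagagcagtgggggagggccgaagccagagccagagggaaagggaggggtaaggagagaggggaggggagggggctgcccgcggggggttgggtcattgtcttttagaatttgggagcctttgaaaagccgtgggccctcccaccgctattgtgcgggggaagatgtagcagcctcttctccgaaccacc
Utf1: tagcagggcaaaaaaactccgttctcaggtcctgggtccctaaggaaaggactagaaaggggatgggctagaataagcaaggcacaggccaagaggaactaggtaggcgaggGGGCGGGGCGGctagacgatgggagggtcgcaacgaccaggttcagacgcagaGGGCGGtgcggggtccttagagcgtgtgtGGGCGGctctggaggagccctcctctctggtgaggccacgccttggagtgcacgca
Uchl1: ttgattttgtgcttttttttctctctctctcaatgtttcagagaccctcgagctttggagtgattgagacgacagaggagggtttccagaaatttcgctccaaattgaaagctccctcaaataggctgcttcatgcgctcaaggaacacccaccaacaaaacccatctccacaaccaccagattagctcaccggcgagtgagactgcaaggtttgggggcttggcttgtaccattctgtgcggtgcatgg

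Their base composition differed. Foxo1 had 56% G and C with an observed to expected CpG ratio of 1.04, against medians of 55.6% and 0.53 over 21114 promoters of protein-coding genes in the same table. Lin28a had 61.2% G and C and a CpG ratio of 0.34, Utf1 had 61.6% and 0.64, and Uchl1 had 48.8% and 0.47. On both strands, the Foxo1 stretch held 2 GC boxes and 3 CCAAT boxes. The Utf1 stretch held 4 GC boxes, a pair of which share a base, and no CCAAT box. No GC box and no CCAAT box was present in the Lin28a and Uchl1 stretches. Over all promoters, 42.7% held a GC box and 35.5% a CCAAT box. The letters TATAAA (11.7% of promoters), GTAAACA, a FOXO site (2.60%), and CACGTG, an E-box (6.64%), were in none of the 4 stretches on either strand. All 4 stretches lay under peaks in both genotypes, so with no closed stretch among them they cannot show whether a GC box goes with accessibility.

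The lists held 119786, 127985 and 133299 peaks in S7KO replicates 1, 2 and 4, and 118881, 105728 and 133663 in WT replicates 1, 2 and 4. WT replicate 2 was the shortest list and WT replicate 4 the longest. The files hold no fragment counts, so the depth of a library is unknown, and peak strength was read as a rank: the place of a peak in its own list by −log10 q, as a percentage, where 0% is the strongest and 100% the weakest peak. As the caller averages its values over a whole broad peak, a wide flat peak ranks lower than a narrow sharp one. The promoter of the targeted gene, Sirt7, carried a peak in all 6 libraries, at ranks of 7.75% to 17.8% in S7KO and 5.62% to 12.5% in WT. A peak list does not show whether the gene was deleted. Promoters of all 10 germ cell markers, Ddx4 and Dazl among them, were called in all 6 libraries, but so were those of 9 of 10 Sertoli, 5 of 6 Leydig, 5 of 5 peritubular, 3 of 4 endothelial and 2 of 4 macrophage markers. Ptprc, Adgre1 and the Sertoli gene Rhox8 had no promoter peak in any library. An open promoter does not show that a gene is expressed, and in these bulk samples a different share of cells with an open site and a different accessibility per cell cannot be told apart.

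All 8 genes carried a promoter peak in all 6 libraries, as did 74.2% of the 21339 protein-coding genes. Their promoter peaks were wide and mostly not among the strongest. The median over the 8 genes of the mean rank was 24.2%, against 8.23% over the 15835 genes with a promoter peak in every library, and the median width was 2303 bp against 1410 bp. A rank behind 8.23% was not particular to the set. Among markers called in all 6 libraries, the median was 17.4% for germ cells, 15.6% for Sertoli cells and 29.1% for Leydig cells. It was 20.5% for peritubular, 16.1% for endothelial and 34.1% for macrophage markers. The order from strong to weak was Taf4b (mean rank over 6 libraries 2.06%), Uchl1 (4.44%), Foxo1 (10.3%), Sall4 (23.6%), Cdh1 (24.8%), Zbtb16 (31.4%), Utf1 (31.5%) and Lin28a (50.6%). The ranges of Sall4, Cdh1, Zbtb16 and Utf1 over the 6 libraries overlapped one another, while Taf4b, Uchl1, Foxo1 and Lin28a each had a range of ranks that met no other gene's. Taf4b and Uchl1, the strongest, had the narrowest peaks of the set, and Lin28a, the weakest, had the widest. Lin28a (3287 bp), Foxo1 (3023 bp), Zbtb16 (2777 bp) and Sall4 (2432 bp) had wider promoter peaks than 98.8%, 97.9%, 96.4% and 92.7% of genes, whereas Taf4b (1368 bp) and Uchl1 (1406 bp) were near the middle with 46.7% and 49.7% of genes below them. Utf1 (2175 bp) and Cdh1 (1608 bp) were wider than 87.5% and 64.3% of genes. Foxo1 alone among the 8 combined a width over 3 kb with a rank near that of the median gene. Ranks and widths come from the same peaks and are given as a description.

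**Figure D1:**
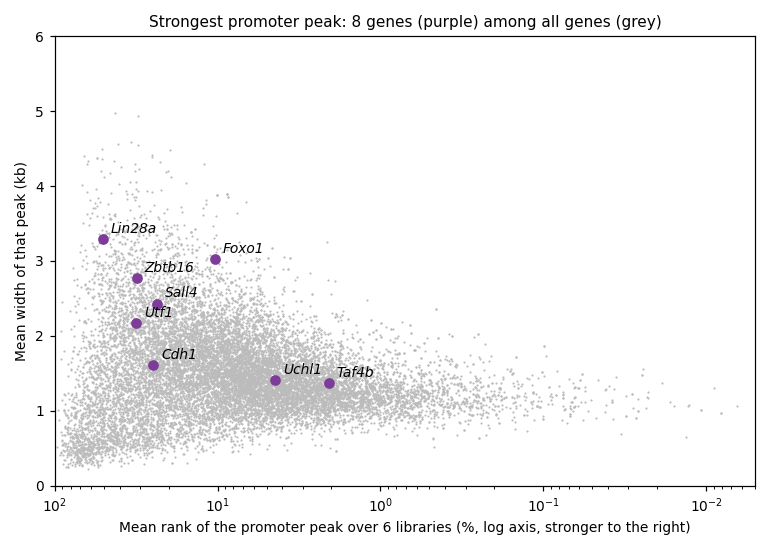
Each grey point is 1 of 15835 protein-coding genes with a promoter peak in all 6 libraries, and purple points are the 8 genes; the horizontal axis is the mean rank of the strongest promoter peak in its list (%, log axis, stronger to the right) and the vertical axis is its mean width (kb). Lin28a, Foxo1 and Zbtb16 lie at the wide edge of the cloud, and Taf4b and Uchl1 lie at ordinary width among the stronger promoters.

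In the windows, the peaks of the 6 libraries merged into 63 regions, and 38 of them had a peak in each of the 6 libraries (60.3%, against 57.1% of 158725 regions in the genome). All 9 promoter regions, 19 of 38 gene body regions and 10 of 16 flanking regions were called in all 6. The regions called in every library were wider (median 1413 bp) than the other 25 (median 501 bp). Of these 25, 9 were called in 1 library only, 4 of them in WT replicate 4. WT replicate 2 lacked 23 of the 63 regions (36.5%) and WT replicate 4 lacked 7 (11.1%), and over the genome they lacked 34.8% and 17.0% of regions. No peak in the 25 regions ranked ahead of 24.6%, the rank of a Lin28a body region in S7KO replicate 1. Peak density in the windows, with a median of 7.76 peaks per 100 kb, was close to the 7.78 of all protein-coding genes, and the share of the window covered was 10.4% against 6.97%. At Zbtb16, Sall4, Lin28a, Utf1 and Cdh1, the strongest region outside the promoter ranked ahead of the promoter peak in all 6 libraries. At Foxo1, Taf4b and Uchl1 it ranked behind the promoter peak in all 6. Those of Sall4, Lin28a and Utf1 sat at the 5′ ends of Atp9a, Dhdds and Gm16201. The best of all other regions in a window is set here against 1 promoter peak. The share over all genes was not determined, so this is a description only.

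**Figure D2:**
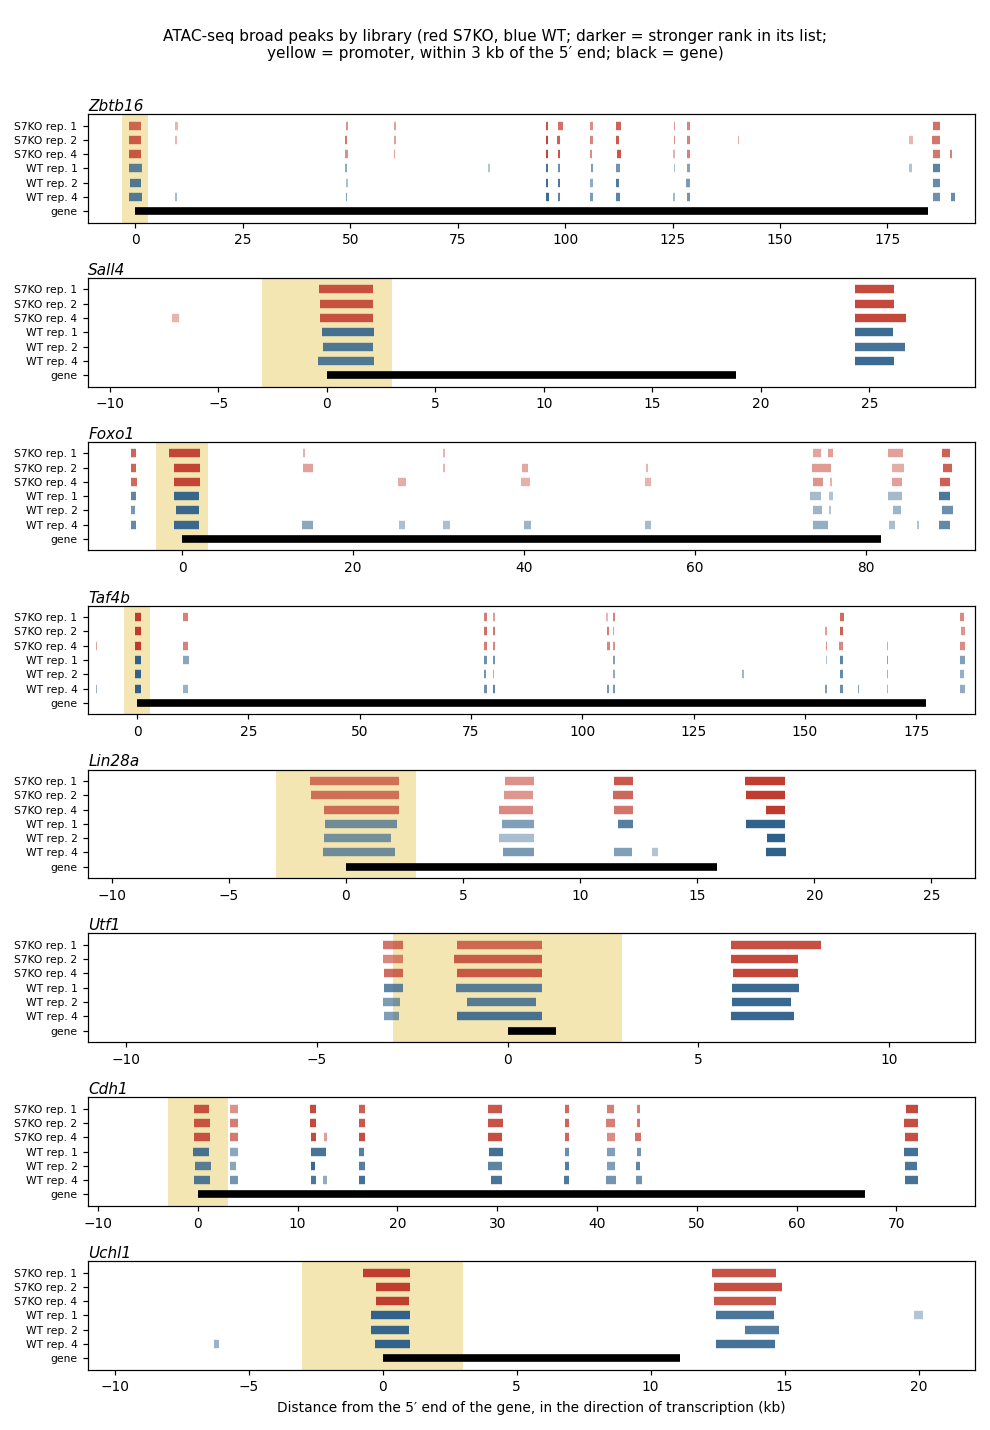
Broad peaks of the 6 libraries (S7KO red, WT blue, 1 row each, darker for a stronger rank) over the window of each gene, against the distance from its 5′ end in the direction of transcription (kb); the gene is black and the 6 kb around the 5′ end is yellow. Every row has a bar in the yellow stretch, and faint narrow bars inside Zbtb16, Foxo1 and Taf4b appear in some libraries only.

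Zbtb16 (gene 235320, chr9:48651797-48836225, minus strand) encodes PLZF and spans 184429 bp. Its window held 15 regions, 12 of them in the gene body, and 8 were called in all 6 libraries. The promoter region, chr9:48834707-48837727, ranked at 39.6%, 29.9% and 26.8% in S7KO (replicates 1, 2 and 4 in turn, as throughout) and at 34.9%, 27.6% and 29.6% in WT. The lowest and the highest place both fell in S7KO, and the WT values lay between them. Its mean fold enrichment over the local background was 3.01 ± 0.10 (SD, n = 3) in S7KO and 3.16 ± 0.33 (SD, n = 3) in WT, below the median of 4.86 over all promoters. The strongest region of the window lay inside the gene, 95879 bp from the 5′ end (chr9:48740053-48740640, 588 bp). It ranked at 19.9%, 10.2% and 10.6% in S7KO and at 23.3%, 15.5% and 12.1% in WT, and the groups overlapped. A further 3 regions called in every library lay from 98904 to 112370 bp from the 5′ end, so that 4 constant regions fell within a short part of a long gene. By Euclidean distance between promoter scores over the 6 libraries, the genes nearest to Zbtb16 were Egr4 (0.08), Chd4 (0.17) and Gm52140 (0.18). Among so many promoters some must lie close in rank, so this describes peak rank only and does not show shared regulation.

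A region in the Zbtb16 gene body was the only 1 of the 63 whose calls split by genotype, with a peak in each S7KO library and none in WT. It lay at chr9:48775641-48776060 (420 bp, 60375 bp from the 5′ end), with ranks of 82.1%, 80.9% and 82.1% and fold enrichments of 2.81, 2.63 and 2.69. These are weak peaks, near the end of the lists. Over the genome, 0.416% of regions were called in all 3 S7KO and no WT library and 0.0743% in all 3 WT and no S7KO library, and the windows held none of the latter. A pattern of 3 of 3 against 0 of 3 cannot pass a test for a single region. When every list was shortened to the length of the shortest, the peak of S7KO replicate 4 fell past the end of its list and the split was lost.

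Sall4 (gene 99377, chr2:168748332-168767201, minus strand) encodes the zinc finger partner of PLZF and is 18870 bp long. Its window held 3 regions, and none lay in the gene body alone. The promoter region, chr2:168765041-168767607, also lies within 3 kb of the 5′ end of Gm14261. It ranked at 21.9%, 22.4% and 21.3% in S7KO and at 19.3%, 27.4% and 29.1% in WT. The S7KO libraries lay close together, inside the wider WT range. A stronger region, 25501 bp from the 5′ end in the downstream flank (chr2:168740529-168742872), sat at the 5′ end of Atp9a, with ranks of 12.5%, 12.5% and 10.7% in S7KO and 11.8%, 19.5% and 10.8% in WT. The remaining region, upstream of Sall4, was called in S7KO replicate 4 only, at a rank of 94.95%.

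Foxo1 (gene 56458, chr3:52268337-52350109, plus strand) encodes the forkhead factor and had 11 regions in its window, 5 of them called in all 6 libraries. The promoter region, chr3:52266751-52270405, contains the printed stretch and ranked at 10.7%, 9.70% and 11.3% in S7KO and at 8.96%, 10.04% and 11.2% in WT. This was 1 of the steadiest promoters of the set, with all 6 libraries within a narrow range. Inside the gene, only 1 region was called in all 6 libraries (chr3:52341765-52344493), and it was weak, at 79.6%, 76.7% and 71.0% in S7KO and 88.5%, 82.6% and 76.1% in WT. The genotypes overlapped, as WT replicate 4 lay ahead of S7KO replicates 1 and 2. The other 5 body regions were called in 2 or 3 libraries, always including WT replicate 4 and never WT replicate 1 or 2, with ranks from 69.2% to 97.1%. The strongest region outside the promoter lay past the 3′ end, 89356 bp from the 5′ end (chr3:52356870-52358516), with ranks of 32.1%, 32.4% and 30.0% in S7KO and 23.4%, 46.6% and 40.1% in WT. The WT libraries fell on both sides of the S7KO ones.

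Taf4b (gene 72504, chr18:14783201-14960424, plus strand), the gene of the TFIID subunit, had the strongest promoter of the 8. The promoter peak ranked at 2.21%, 1.55% and 2.02% in S7KO and at 1.91%, 3.35% and 1.36% in WT, ahead of the promoter of most genes, with 16.4% of genes ranking better. Its fold enrichment was 5.98 ± 0.08 (SD, n = 3) in S7KO and 6.11 ± 0.19 (SD, n = 3) in WT. The lowest and highest ranks both belonged to WT libraries. Among the 10 body regions of this 177224 bp gene, 4 had a peak in every library, and none of these was near the promoter in strength. The best, 158118 bp from the 5′ end (chr18:14940758-14941880), ranked at 38.6%, 32.7% and 61.2% in S7KO and 36.2%, 43.4% and 45.2% in WT. The WT libraries lay inside the wider range of the S7KO libraries there.

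Utf1 (gene 22286, chr7:139943856-139945112, plus strand), the gene of the chromatin-associated factor, is 1257 bp long, and its main promoter region (chr7:139942460-139944764) covered most of it. That region ranked at 42.9%, 29.6% and 27.9% in S7KO and at 34.1%, 33.0% and 21.6% in WT. Replicate 4 was the strongest and replicate 1 the weakest in both genotypes. A further region, chr7:139940584-139941112, overlaps the neighbouring gene Kndc1, touches the edge of the promoter window and was called in all 6 libraries at ranks of 37.8% to 62.0%. The strongest region of the window, 7036 bp past the 5′ end of Utf1 (chr7:139949703-139952083), was at the 5′ end of Gm16201. It ranked at 17.9%, 11.7% and 10.5% in S7KO and at 10.04%, 9.19% and 8.59% in WT. Every S7KO library lay behind every WT library there, by a small margin.

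Lin28a (gene 83557, chr4:134003330-134019196, minus strand), the gene of the let-7 blocking protein, had the widest and weakest promoter peak of the set. The promoter region, chr4:134016926-134020734, ranked at 49.8%, 49.7% and 44.6% in S7KO and at 52.1%, 56.2% and 51.4% in WT. Every S7KO library lay ahead of every WT library. The peak itself was 3799, 3726 and 3206 bp wide in S7KO and 3054, 2860 and 3075 bp in WT, narrowest in the shortest list, WT replicate 2. Past the 3′ end, 17918 bp from the 5′ end, the region of best mean rank in any of the 8 windows (1.81%, chr4:134000423-134002135) sat at the 5′ end of Dhdds, with ranks of 2.81%, 2.08% and 1.15% in S7KO and 2.13%, 1.003% and 1.72% in WT. Inside the gene, chr4:134006935-134007774 was called in every library but WT replicate 2, at ranks of 24.6% to 61.8%, and a second region (chr4:134011147-134012656) was called in all 6 at 55.9% to 90.5%.

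Cdh1 (gene 12550, chr8:106603350-106670247, plus strand), the gene of E-cadherin, had 9 regions in its window, and all of them, like the 3 of Utf1, were called in all 6 libraries. The promoter region, chr8:106602886-106604683, ranked at 21.3%, 24.4% and 21.8% in S7KO and at 20.7%, 34.3% and 26.4% in WT. The groups overlapped through WT replicate 1. Of the 7 body regions, the strongest lay 12060 bp from the 5′ end (chr8:106614557-106616265), with ranks of 11.8%, 12.8% and 12.0% in S7KO and 20.5%, 9.17% and 24.0% in WT. The 3 S7KO libraries were nearly level, and WT libraries lay on both sides. A region past the 3′ end, 71500 bp from the 5′ end (chr8:106674162-106675539), ranked at 13.3%, 16.7% and 16.3% in S7KO and at 17.2%, 22.3% and 18.5% in WT, so that every S7KO library lay ahead of every WT library.

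Uchl1 (gene 22223, chr5:66676121-66687234, plus strand), the gene of the ubiquitin hydrolase, had the second strongest promoter, chr5:66675383-66677142, which also holds the 5′ end of Uchl1os. Accessibility carries no strand, so the promoters of the 2 genes cannot be told apart. It ranked at 4.52%, 3.53% and 4.33% in S7KO and at 3.66%, 6.34% and 4.24% in WT, with WT replicate 2 the weakest. No region lay in the gene body alone. A region downstream, 13600 bp from the 5′ end (chr5:66688413-66691029), was called in all 6 libraries, with ranks of 19.01%, 16.6% and 22.3% in S7KO and 21.7%, 28.5% and 18.7% in WT. The other 2 regions were single calls, in WT replicate 4 and in WT replicate 1.

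The number of peaks in the 8 windows together was 47, 50 and 53 in S7KO and 47, 41 and 57 in WT. That is 50 ± 3 (SD, n = 3) against 48.3 ± 8.08 (SD, n = 3), a difference smaller than the spread in WT. Counts followed the length of the list, with 3.92, 3.91 and 3.98 of every 10000 peaks in S7KO and 3.95, 3.88 and 4.26 in WT. Peaks covered 54081, 54747 and 54622 bp in S7KO and 51927, 42219 and 56092 bp in WT, or 54483 ± 354 bp against 50079 ± 7119 bp (SD, n = 3 each). The gap of 4404 bp came largely with WT replicate 2, without which it was 474 bp, and without that library the number of peaks was lower in S7KO than in WT, by a difference of -2.

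**Figure D3:**
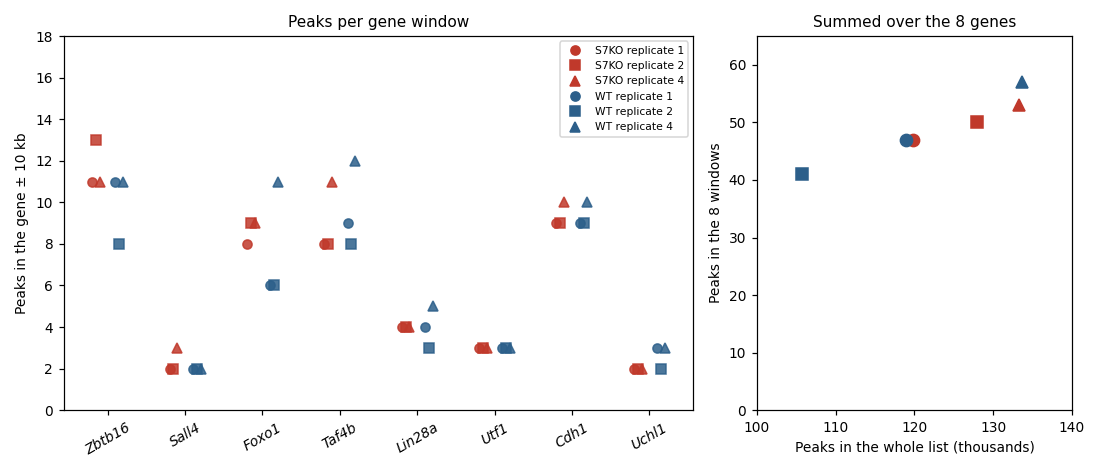
Left, the number of broad peaks in the window of each gene by library (S7KO red, WT blue, shape for replicate). Right, the summed number over the 8 genes against the peaks in the whole list: the 6 libraries line up by list length, from 41 peaks in WT replicate 2 to 57 in WT replicate 4.

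Gene by gene, Zbtb16 had 11, 13 and 11 peaks in S7KO and 11, 8 and 11 in WT, Foxo1 had 8, 9 and 9 against 6, 6 and 11, and Taf4b had 8, 8 and 11 against 9, 8 and 12. The low counts were those of WT replicates 1 and 2 at Foxo1 and of WT replicate 2 at Zbtb16, and each of these genes overlapped between genotypes. Cdh1 had 9, 9 and 10 in both genotypes, Lin28a had 4, 4 and 4 against 4, 3 and 5, Utf1 had 3 in every library, Sall4 had 2, 2 and 3 against 2, 2 and 2, and Uchl1 had 2, 2 and 2 against 3, 2 and 3. In an exact permutation test (two-sided, 20 ways to assign the libraries), p ranged from 0.4 (Uchl1) to 1, where 0.1 is the smallest value that 3 against 3 can give. No gene separated the genotypes. Over all protein-coding genes, the number of peaks did not overlap between genotypes in 1.4% (1.2% with S7KO above and 0.197% with S7KO below), and the bases covered did not overlap in 6.89% (6.38% above and 0.511% below). In bases covered, all 8 genes overlapped as well.

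Promoter strength was compared on a normal score of the rank, which is 0 for the middle of a list and grows for stronger peaks, with limma over all 15835 promoters. At an adjusted p under 0.05, limma passed no promoter of the 8 genes and none of the 15835 (0%). Each of the 8 had an adjusted p of 0.999905 by limma. The differences of S7KO minus WT in score, with their SE, were -0.04 ± 0.11 for Zbtb16, 0.10 ± 0.10 for Sall4, -0.03 ± 0.08 for Foxo1 and 0.04 ± 0.11 for Taf4b. For Utf1, Lin28a, Cdh1 and Uchl1 they were -0.11 ± 0.14, 0.13 ± 0.08, 0.14 ± 0.11 and 0.06 ± 0.09. Their median was 0.05, against 0.03 over all promoters, so the set sat where promoters in general sat. At an unadjusted p under 0.05, limma passed none of the 8 and 371 of the 15835 promoters (2.34%).

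**Figure D4:**
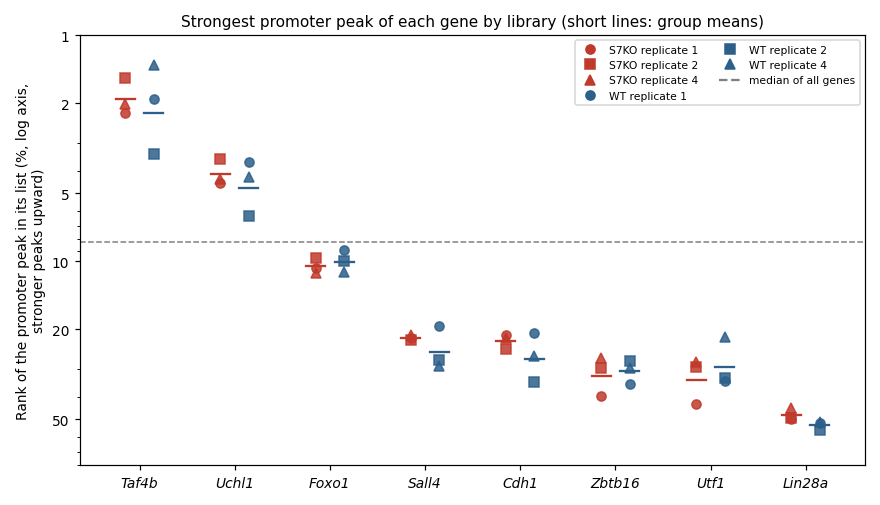
Rank of the strongest promoter peak in its list (%, log axis, stronger upward) for each gene and library (S7KO red, WT blue, shape for replicate; short lines are group means), with genes ordered by mean rank and the median over all genes, 8.23%, dashed. Mean ranks run from 2.06% at Taf4b to 50.6% at Lin28a, and only at Lin28a do the red and blue points not overlap.

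Lin28a was the only 1 of the 8 genes whose promoter scores did not overlap, with S7KO above WT. Over all promoters, 5.23% had S7KO above and 1.24% had S7KO below (6.47% either way), so 1 of 8 is near that background. Its difference was 0.13, with a 95% interval from -0.06 to 0.32, and its limma adjusted p is that given above. The intervals limit how large a difference could have been missed. They ran from -0.29 to 0.22 for Zbtb16, from -0.12 to 0.33 for Sall4, from -0.21 to 0.15 for Foxo1 and from -0.21 to 0.28 for Taf4b. For Utf1, Cdh1 and Uchl1 they ran from -0.43 to 0.21, from -0.11 to 0.39 and from -0.16 to 0.27.

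The 38 regions called in all 6 libraries were tested in the same way among 90689 such regions. No region passed limma at an adjusted p under 0.05, with a smallest adjusted p of 0.99989, and 0 of the 90689 did (0%). In simulated scores, the test over regions found 0 of 100 shifts of 0.5, so a difference of that size can be missed. At an unadjusted p under 0.05, limma passed 0 of the 38 and 2954 of the 90689 (3.26%). The largest difference was 0.53 (95% interval -0.23 to 1.28), at a weak Zbtb16 body region 49112 bp from the 5′ end (chr9:48786701-48787525). Its ranks were 70.1%, 48.6% and 67.0% in S7KO and 71.7%, 94.1% and 64.3% in WT, and the difference was carried by S7KO replicate 2 and WT replicate 2. Scores did not overlap in 3 of the 38 regions, namely the Lin28a promoter and the region past Cdh1, with S7KO above, and the region at Gm16201 beside Utf1, with S7KO below. Over all regions, 5.98% had S7KO above and 1.35% had S7KO below (7.33% either way). The Cdh1 difference was 0.15 (95% interval -0.13 to 0.44) and the Gm16201 difference was -0.20 (-0.52 to 0.11). The median difference was 0.09 over the 38 regions and 0.06 over all.

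**Figure D5:**
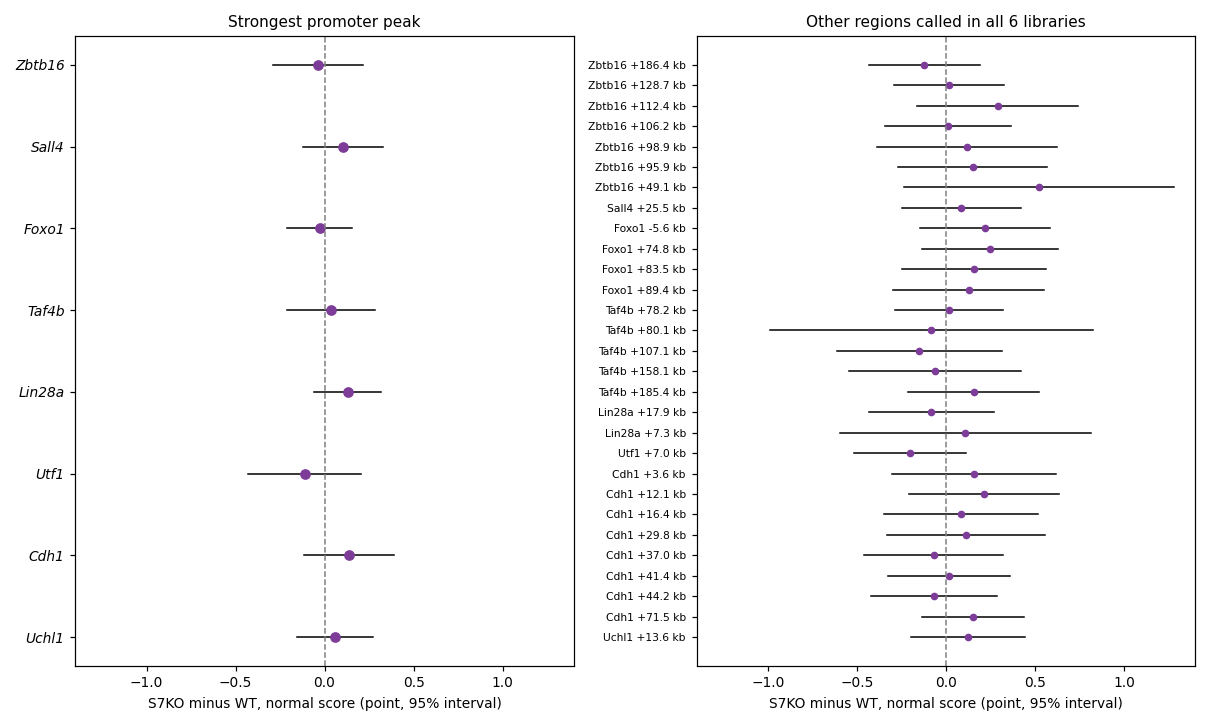
Difference of S7KO minus WT in the normal score of the peak rank (point) with its 95% interval (line), at the strongest promoter peak of the 8 genes (left) and at the other regions of their windows called in all 6 libraries, named by gene and distance from the 5′ end (right; a second Utf1 promoter region is not drawn). Every interval includes 0; the left and right panels come from separate fits, over promoters and over regions.

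All 25 promoters of a list of other genes of undifferentiated spermatogonia were called in all 6 libraries, with a median rank of 21.4%, similar to the 24.2% of the 8 genes. They ran from Etv5 (mean rank 1.49%), a transcription factor induced by GDNF, and Zbtb7a (5.58%), a relative of Zbtb16, to Tspan8 (75.4%) and Pou5f1 (75.7%), the pluripotency factor. All 9 promoters of a list of differentiating spermatogonia genes were called as well, with a median of 17.8%, from Prdm1 (3.41%) and Rec8 (12.9%) to Ccnd2 (38.4%) and Stra8 (39.1%). No promoter of either list differed between genotypes at an adjusted p under 0.05 by limma. At an unadjusted p under 0.05, limma passed 2 of the 25 and none of the 9, against 2.34% of all promoters. The 2 were Gfra1 (difference in score 0.23 ± 0.10, SE) and Nanos2 (0.26 ± 0.11), a GDNF receptor and an RNA-binding protein. Both had the S7KO mean above and an adjusted p of 0.999905 by limma. Among the cell type markers, limma at that unadjusted level passed 1 of 9 promoters of the Sertoli list, that of Gata4 (0.34 ± 0.12, SE). It passed none of the 10 germ cell, 5 Leydig, 5 peritubular, 3 endothelial and 2 macrophage promoters. Whether somatic cells take part in any of these values was not tested.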

How the data were processed

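ATAC-seq was performed by the authors on spermatogonia-enriched cells, with 3 S7KO and 3 WT libraries. Per the labels and the study's methods, the authors trimmed reads (Trim Galore 0.6.6), aligned them to mm10 (Bowtie2 2.4.4.1), kept unique, non-duplicate reads without mitochondrial DNA, shifted ends for the Tn5 cut, filtered fragments by length and called broad peaks (MACS2 2.2.5) for each library. The study's text also names merged nucleosome-free profiles, and which fragments entered the deposited lists was not settled here. The deposited values are, per peak, a fold enrichment (a ratio of pileup to local background), the −log10 p-value and −log10 q-value, and a display score, which was not used. Wide peaks average low, and depth is not given in the sources used here. The authors' DiffBind test (3.16) needs fragment counts and was not repeated.

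Peaks on chromosomes 1 to 19, X and Y were used, which left out at most 0.0277% of a list. Peaks that overlapped or touched were merged into regions, and a library had a region when 1 bp of a peak lay in it. Gene extents came from RefSeq on GRCm38.p6, with strand from a RefSeq promoter table or, by symbol and chromosome, GENCODE, which placed 97.5% of 21887 protein-coding genes. Exons and introns were not separated. Ranks by −log10 q within each list were turned into normal scores and compared with limma 3.58.1 (R 4.3.3), two-sided, Benjamini-Hochberg over all regions or promoters, threshold 0.05. The test was tried on simulated scores with independent noise and known shifts, in which many features were shifted at once. Among 15835 promoters it found 68 of 100 at a shift of 0.5 and 49 of 50 at a shift of 1. Among 90689 regions it found 0 of 100, 12 of 50 and, at a shift of 2, 49 of 50. A single change in these libraries can be harder to find. Peak numbers per gene were compared by an exact permutation test.

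The 8 genes, the lists and the tests were chosen with earlier results of these data known. Named are all 8 genes and, in each window, the best promoter region, the best region outside it, the region of smallest p and any region of 1 genotype only; of lists, the 2 best and 2 worst ranks, and the 3 genes nearest Zbtb16. Genes and regions below an unadjusted p of 0.05 or with separate genotypes, and single calls, were added after their values were seen. Alternatives were equal list lengths, a stricter q, flanks of 5 kb, a promoter of 1 kb, 50% overlap, ranking by fold enrichment, log2 fold enrichment, regions called in at least 3 libraries, a limma trend, a replicate block and leaving out each library.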

Additional observations from a re-analysis of the deposited data

How the results depend on the processing

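All 8 promoters kept a peak in all remaining libraries with equal list lengths, a stricter q, a promoter of 1 kb, and without each library in turn. No promoter of the 8 passed limma's threshold under any of the 14 alternatives, the smallest adjusted p being 0.92, and the sign of the score difference held in 14 of 14 for Cdh1, Lin28a and Sall4, in 13 for Foxo1 and Uchl1, in 12 for Utf1 and Zbtb16 and in 11 for Taf4b. Leaving out 1 library at a time, the difference in the number of peaks in the 8 windows ranged from -2 to 6 and that in bases covered from 474 to 7410 bp, both lowest without WT replicate 2. Without that library the number of peaks turned to a difference of -2. The count of regions called only in S7KO ranged from 1 to 2, with 2 without WT replicate 4 (adding chr18:14888469-14889339 in Taf4b), and was 0 with an equal number of peaks, since shortening the lists takes away the weak Zbtb16 peak of S7KO replicate 4. The count called only in WT ranged from 0 to 1, with 1 without S7KO replicate 4 (chr18:14951556-14951942 in Taf4b). With regions called in at least 3 libraries, where an absent peak is set at the end of the list, 1 region of the windows, the Zbtb16 region called only in S7KO, passed limma, as did 656 of 124320 regions, which follows from that setting. In Uchl1 the difference of -0.67 peaks became 0 with an equal number of peaks and with flanks of 5 kb.

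Libraries with the same replicate number deviated together by r = 0.286, 0.035 and 0.311 for replicates 1, 2 and 4 over 90689 regions, and each library correlated best with its own number except for replicate 2, so the number was not taken as a pairing. With a replicate block, limma again called 0 promoters and 0 regions of the 8 genes, and 1 of 15835 promoters overall. Lack of depth and of counts limits these results to ranks, and at regions the test had little power for shifts in score under 2.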
